A study of Mus musculus with 7 samples.

Results

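The cytosolic ribosomal protein genes encode the proteins of the large (60S) and small (40S) subunits of the ribosome. They were taken here as the protein-coding genes of GENCODE M21 whose symbol is Rpl or Rps followed by a number and an optional a, x or l and further digits, plus Rpsa, Rplp0, Rplp1 and Rplp2. This rule, which uses no measured value, found 83 genes among the 49315 in the count table, 51 of the large and 32 of the small subunit. Their RNA was measured by poly(A)-selected sequencing of bone marrow from mice fed chow and subjected to hindlimb ischemia, a surgical loss of blood supply to the leg. The 4 KO libraries came from miR-181a2b2-/- mice, which lack this microRNA cluster, and the 3 flox libraries from miR-181a2b2flox/flox mice, whose alleles carry the recombination sites. The titles of the flox libraries call them WT. The deleted precursors Mir181a-2 and Mir181b-2 had 0 counts in all 7 libraries, so the genotypes rest on the labels alone. Chow feeding and ischemia were common to all 7 libraries, so no library shows unoperated marrow. The labels give no age, no Cre driver and no word on whether a library is 1 animal or a pool, and the spread between libraries that every p-value rests on may be technical.

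Every ribosome carries a set of these proteins in fixed proportion, and their messages are among the most abundant of any growing cell. In vertebrates most of these messages begin with a C followed by a run of pyrimidines, the 5′ terminal oligopyrimidine (TOP) motif, through which the mTOR pathway and its effector LARP1 set their translation together. Blood formation is sensitive to their dose: in humans, loss of 1 copy of several of them causes Diamond-Blackfan anaemia, and loss of RPS14 contributes to the anaemia of the 5q- syndrome.

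Total counts ran from 43110251 to 48320848 in KO and from 46151300 to 51688514 in flox. The marrow identity was legible from listed markers: 12 neutrophil genes summed to between 35015 and 44204 CPM (counts scaled to a common library size) in KO and between 43834 and 63299 CPM in flox, and 8 erythroid genes to between 45851 and 60659 CPM in KO and between 29193 and 49363 CPM in flox. Library flox 1 stood apart, with 12 B lineage markers at 88.5 CPM in sum, against 870 to 1107 CPM in KO and 516 and 820 CPM in flox 2 and flox 3. The 8 intestinal markers listed summed to 79.0 to 84.4 CPM in KO and 33.7 to 34.7 CPM in flox. All 8 passed that test with KO higher, as did 0.134% of all 17920 tested genes. The lists were chosen with earlier results of these data known, so this count is no independent result. In the other direction, the sums of 6 stromal markers (308 to 478 CPM in KO, 499 to 894 CPM in flox) and of 6 neuronal markers (5.67 to 7.40 CPM in KO, 10.2 to 13.6 CPM in flox) did not overlap either. All 6 genes of each list were lower in KO, with 0 stromal and 1 neuronal marker past the threshold. The part of these cell markers in the levels of the ribosomal protein genes was not tested. The extraction note in the labels names another tissue, white adipose tissue, and the source label, bone marrow, was followed.

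The TOP tract was looked for in the sequence at the annotated start of each gene. RefSeq (build GRCm38.p6) held starts for 63 of the 83 members, 75 starts in all. A TOP tract was counted as a C at the annotated first base followed directly by at least 4 pyrimidines. Such a tract began at 13 of the 75 starts (17.3%), against 823 of all 32851 starts in that table (2.51%). The count needs a C exactly at the annotated start, so a tract beside it is missed. In Rpl27a and Rpl7a, counted as without a tract, a pyrimidine run crosses the annotated start. The 17.3% is thus no estimate of the share of members with a TOP motif. The 7 windows below were chosen to show tracts in both subunits and in Rps27, with its paralogue Rps27l for comparison. Each runs from 25 bases before the start to 25 bases from it, 5′ to 3′ on the gene's own strand, and capitals mark the tract.
Rps27, chr3:90213624-90213673, minus strand: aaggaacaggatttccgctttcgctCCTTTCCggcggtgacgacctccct
Rps27l, chr9:66946061-66946110, plus strand: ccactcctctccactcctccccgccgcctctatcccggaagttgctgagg
Rps6, chr4:86857343-86857392, minus strand: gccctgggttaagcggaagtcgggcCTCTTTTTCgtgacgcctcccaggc
Rps18, chr17:33955641-33955690, minus strand: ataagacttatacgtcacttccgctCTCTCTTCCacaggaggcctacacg
Rpl28, chr7:4792940-4792989, plus strand: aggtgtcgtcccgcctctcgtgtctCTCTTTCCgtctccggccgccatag
Rpl35a, chr16:33056457-33056506, plus strand: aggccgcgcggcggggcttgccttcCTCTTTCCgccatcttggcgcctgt
Rpl38, chr11:114668555-114668604, plus strand: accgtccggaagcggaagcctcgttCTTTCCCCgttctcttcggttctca

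Other short motifs were searched on both strands of the RefSeq promoters, which run from 250 bases before to 50 bases from the start. The letters CTTTCC, which can lie inside a TOP tract as in Rps27 and Rpl28, occurred in 49.3% of the 75 member promoters and in 26.6% of all promoters. CCGGAAG, the core recognised by ETS factors such as GABP, occurred in 36.0% against 8.86%, and GGGCGG, the core of Sp1 sites, in 45 of the 75 against 35.7%. AAGATGGC, a core of YY1 sites, occurred in 10.7% against 2.75%, and the TATAAA box in 9.33% against 13.6%. These are matches of letters at annotated starts, with no measure of binding.

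Of the 83 members, 82 passed the filter on low counts and 77 remained when the 6 paralogues Rpl3l, Rpl7l1, Rpl10l, Rpl22l1, Rpl39l and Rps27l were set aside. To compare genes with each other, CPM were divided by the length of the shortest APPRIS principal transcript with the full coding sequence, a level per kilobase (kb). The highest levels per kb, as means of all 7 libraries, were those of Rplp1, part of the stalk that recruits elongation factors (1520 CPM per kb), Rps12 (1519 CPM per kb) and Rps9 (1155 CPM per kb). The lowest of the members that passed the filter were Rpl39l (0.333 CPM per kb), Rpl3l (0.838 CPM per kb) and Rpl7l1, a homologue of Rpl7 with a role in ribosome assembly (54.2 CPM per kb). Rpl24, a large subunit protein, stood at 130 CPM per kb, close to the paralogues Rps27l (123 CPM per kb) and Rpl22l1 (124 CPM per kb). The setting for multi-mapping reads was not given, so how reads shared with near-identical copies bear on these levels cannot be told. The choice of transcript, an alternative added after the data were seen, moves some levels: Rplp2 ranked 7 of 83 with its shortest and 54 with its longest transcript, while Rplp1 and Rps12 ranked 1 and 2 with either. Rps20 (111 CPM per kb) has only a transcript of 3706 bases in this set, and its level per kb rests on that length.

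**Figure D1:**
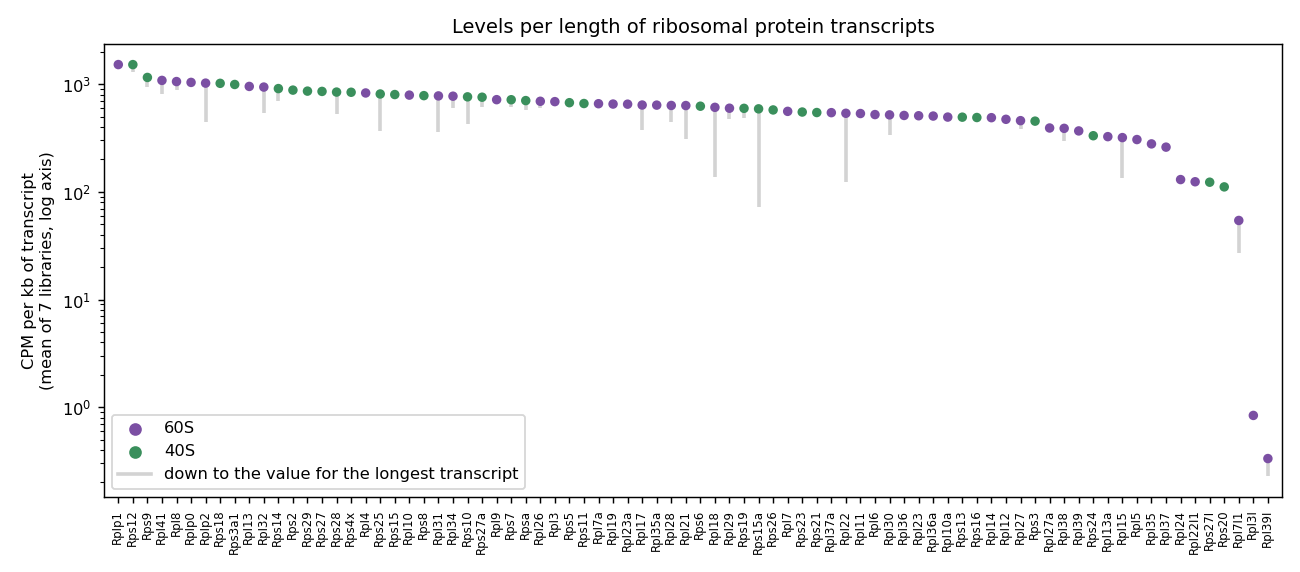
Mean level of 80 of the 82 tested genes over 7 libraries, in CPM per kb of transcript on a log axis, with large subunit (60S) genes in purple and small subunit (40S) genes in green; grey lines reach down to the value with the longest transcript. The points of genes that are not paralogues run from 111 CPM per kb (Rps20) to 1520 CPM per kb (Rplp1). Rpl7l1 (54.2 CPM per kb), Rpl3l (0.838) and Rpl39l (0.333) lie at the low end.

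Summed over the family, the level of ribosomal protein RNA differed between genotypes by less than it did between libraries of 1 genotype. Together, the 83 members stood at 37677, 39256, 41706 and 39083 CPM in KO 1 to KO 4, against 37177, 40622 and 38451 CPM in flox 1 to flox 3. The groups overlapped, with KO 3 highest and flox 1 lowest. The means were 39430 ± 1673 CPM (SD, n = 4) in KO and 38750 ± 1742 CPM (SD, n = 3) in flox, a difference of means of 0.03 on the log2 scale that is smaller than either SD. In bulk marrow fewer cells of a type and less RNA per cell cannot be told apart in such a level. As a share of all counts, before any scaling, they took 3.85% to 4.04% in KO and 3.61% to 4.01% in flox. The balance of the subunits was tighter than the sum. It was taken over the 77 members that are not paralogues, 46 of the large and 31 of the small subunit. The ratio of summed levels per kb, large over small, was 1.26 ± 0.00527 (SD, n = 4) in KO and 1.26 ± 0.0118 (SD, n = 3) in flox. As more large than small subunit genes enter the sums, a ratio above 1 is no excess per gene.

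In the quasi-likelihood test of edgeR, at a Benjamini-Hochberg adjusted p under 0.05, 0 of the 82 tested members passed. Of all 17920 tested genes 0.145% passed (26 genes), 0.134% with KO higher and 0.0112% with KO lower. DESeq2 called 0 members too, where it called 2.04% of tested genes. At an unadjusted p under 0.05 the edgeR test had 1 member, Rpl3l, which is 1.22% of the members, where 14.1% of all tested genes lay under it. The groups failed to overlap in 3 members, Rpl3l and Rps27 with KO higher and Rps27l with KO lower, which is 3.66% of the members, where 13.6% of all tested genes had groups that do not overlap (6.22% with KO higher and 7.41% with KO lower). The median log2 fold change of the members was 0.03, with 63 higher and 19 lower in KO, against a median of -0.01 and 48.1% higher over all tested genes. That majority depended on flox 1: without this library, which had the lowest summed level, 36 of 82 were higher and the median was -0.01.

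The intervals were narrow enough to bound most members. In 78 of the 82 the 95% interval of the fold change lay within a 1.25-fold change in either direction, which held for 29.5% of all tested genes. The other 4 were Rpl3l, Rpl39l, Rps27 and Rpl41. Among the 77 members that are not paralogues, fold changes ran from -0.06 to 0.16 and interval ends from -0.24 to 0.34 on the log2 scale. Their median size was 0.04, against 0.09 for 2490 other genes within the same range of mean level. A change smaller than these intervals would not have been detectable with 7 libraries.

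**Figure D2:**
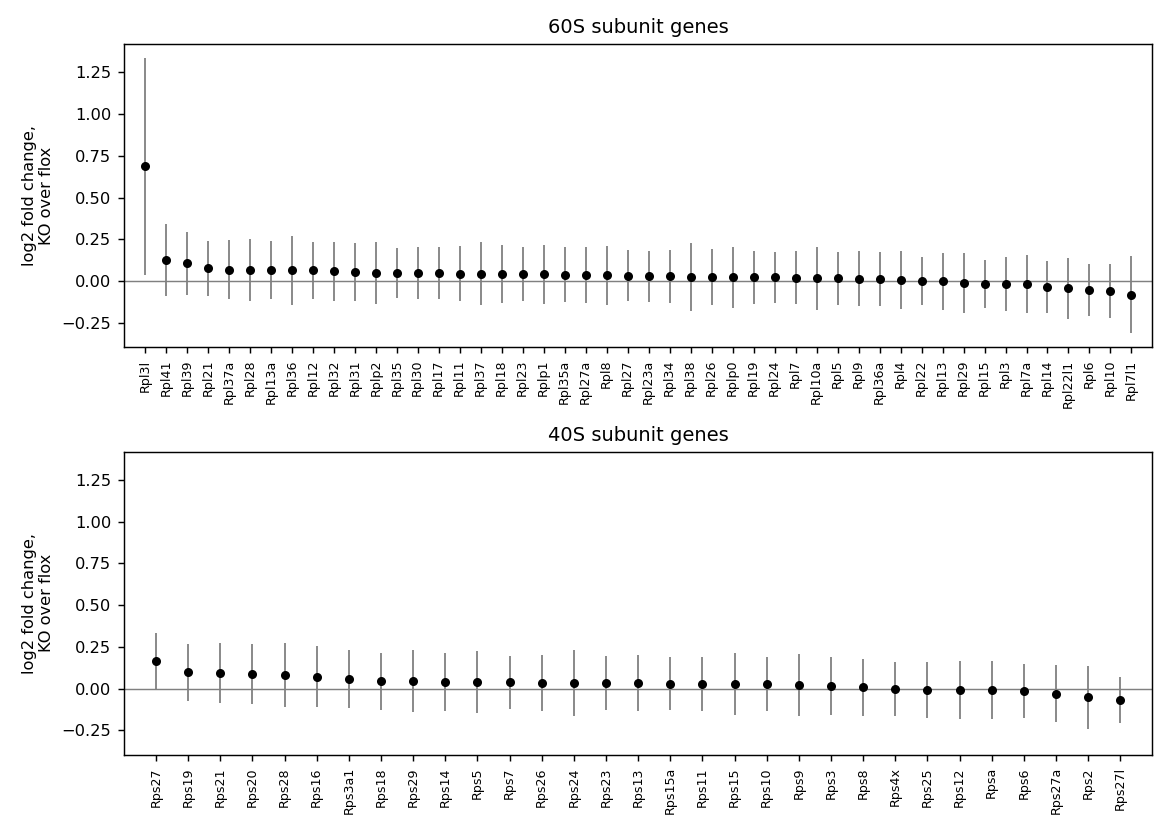
Log2 fold change of KO over flox (points) with its 95% interval (lines) for 79 tested genes in order of size, large subunit genes above and small subunit genes below; Rpl39l, whose interval runs from -1.59 to 1.03, is left out, as are 2 further tested genes that are not reported here. All intervals shown but that of Rpl3l span 0, and Rpl3l at 0.69 lies farthest out, with Rps27 next at 0.16.

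Between libraries of 1 genotype the members also varied little, and they varied together. The SD of log2 CPM within groups had a median of 0.08 over the 77 members that are not paralogues (range 0.04 to 0.13). It was 0.11 over the 2490 other genes within the same range of mean level and 0.19 over all tested genes. Those 2490 genes were not matched to the members by level, and 23.8% of them had an SD below the median of the 77. The deviation of each of the 77 genes from its own mean over 7 libraries had a median of -0.05, 0.01, 0.10 and 0.00 log2 units in KO 1 to KO 4 and of -0.09, 0.06 and -0.02 in flox 1 to flox 3. Flox 1 was the lowest library for 50 of the 77 genes and KO 1 for 15, while KO 3 was the highest for 49 and flox 2 for 25. Once the median of each library was taken off, the median SD of what remained was 0.04. That SD runs over all 7 libraries and not within groups, so it is not on the footing of the 0.08. The library medians come from the same 77 genes, so taking them off tends to lower the spread by construction. No such value was made for the other genes. The same libraries differed in cell markers: erythroid markers summed to 60659 CPM in KO 3, the highest library, and to 29193 CPM in flox 2, the lowest, while both were high in ribosomal protein RNA. B lineage markers were lowest in flox 1 (88.5 CPM) and highest in KO 1 (1107 CPM), while both were low in ribosomal protein RNA. Another of the marker lists, named here for its ends, ran opposite to ribosomal protein RNA there but not between them. The 6 megakaryocyte markers listed had their highest sum in flox 1 (703 CPM) and their lowest in KO 3 (305 CPM). However, KO 1, low in ribosomal protein RNA, had 337 CPM of them, less than flox 2, which was high in it (387 CPM). The part of any of these cell markers in the family's level was not tested.

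**Figure D3:**
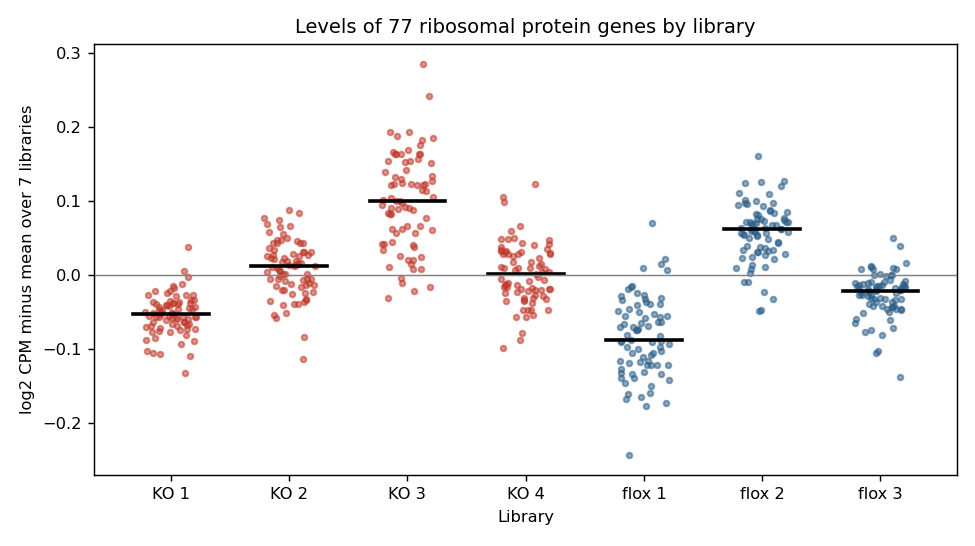
Deviation of each of 77 ribosomal protein genes (points) from its mean log2 CPM over 7 libraries, by library, KO in red and flox in blue, with the median as a black bar. The medians run from -0.09 in flox 1 to 0.10 in KO 3, and both genotypes hold libraries above and below 0.

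**Figure D4:**
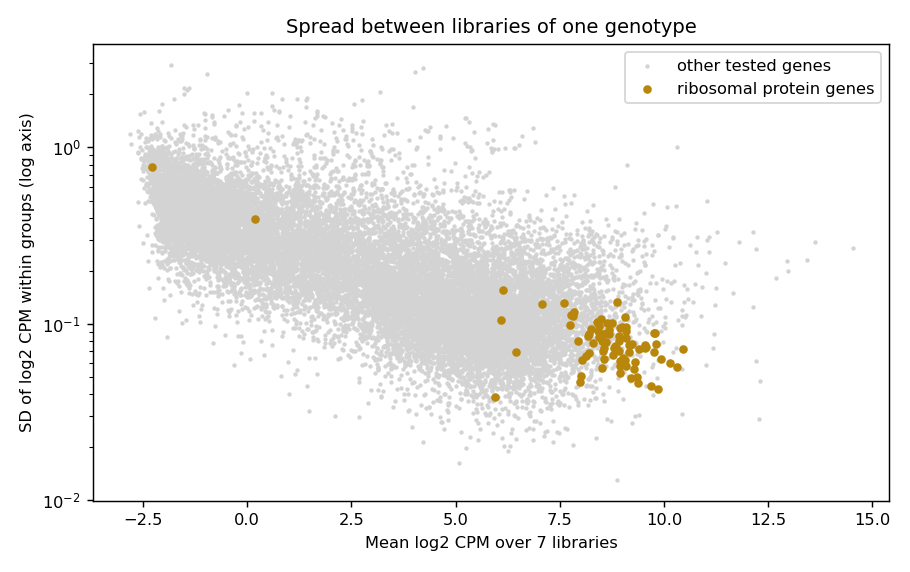
SD of log2 CPM within groups (log axis) against mean log2 CPM for the 17920 tested genes (grey) and the 82 ribosomal protein genes among them (gold). The ribosomal protein genes lie at high level and low spread, apart from the paralogues Rpl39l and Rpl3l at low level.

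Of the 77 members that are not paralogues, those that kept least to the common pattern were Rpl41, Rpl13a and Rps27, with SDs of 0.09 each after the library median was removed. They were chosen for that spread after their values were seen. Rpl41 encodes the smallest ribosomal protein, with 75 coding bases, and had 439, 469, 575 and 481 CPM in KO against 431, 456 and 464 CPM in flox. Its high value was that of KO 3, and the groups overlapped (log2 fold change 0.13, SE 0.10, edgeR adjusted p = 0.621). Rpl13a, which in human monocytes leaves the ribosome to silence inflammatory messages, had 335, 314, 370 and 371 CPM in KO against 336, 329 and 330 CPM in flox, with KO 3 and KO 4 above the others. At the other end of the 77 Rpl19 followed the library medians to within an SD of 0.02.

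Rps27 had the lowest p of the members that are not paralogues. This small subunit gene (ENSMUSG00000090733, chromosome 3, 90212522 to 90213651, minus strand, GRCm38) had 302, 313, 320 and 303 CPM in KO against 249, 293 and 288 CPM in flox. All KO libraries lay above all flox libraries, and flox 1 was lowest. On the log2 scale KO exceeded flox by 0.16, with an SE of 0.08 and a 95% interval from -0.01 to 0.33 (edgeR adjusted p = 0.372), and by 0.09 without flox 1. Rps27l, its paralogue, whose human counterpart is induced by p53 (ENSMUSG00000036781, chromosome 9, 66946086 to 66949516, plus strand), had 58.8, 60.2, 60.2 and 60.9 CPM in KO against 61.3, 65.8 and 62.0 CPM in flox. Here all KO libraries lay below all flox libraries, with a log2 fold change of -0.07 and an SE of 0.06 (edgeR adjusted p = 0.671). Rps27l thus stood at 19.4 ± 0.545% of Rps27 (SD, n = 4) in KO and at 22.9 ± 1.60% (SD, n = 3) in flox, by CPM. Neither gene passed the test, and the ratio, chosen after these values were seen, was not tested. Rps27rt, a further annotated copy, had 0.842 to 1.30 CPM in KO and 0.962 to 1.05 CPM in flox, so few reads were assigned to it.

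Rpl3l, the paralogue of Rpl3 that striated muscle uses (ENSMUSG00000002500, chromosome 17, 24727820 to 24736143, plus strand), was the member with the lowest p. It had 1.16, 1.17, 2.01 and 1.16 CPM in KO, from 55, 55, 94 and 51 counts, against 0.598, 0.922 and 1.05 CPM in flox, from 30, 45 and 49 counts. The groups did not overlap, but 1 KO library stood well above the other 3 (log2 fold change 0.69, SE 0.29, 95% interval 0.03 to 1.34, edgeR adjusted p = 0.334). The fold change was 0.46 without KO 3 and 0.48 without flox 1. The 6 skeletal muscle markers listed summed to 22.8 CPM in KO 3, against 13.9 to 16.2 CPM in the other KO libraries and 12.4 to 15.0 CPM in flox. Of these markers 5 were tested, all were higher in KO (median 0.51) and 0 passed. The calcium pump gene Atp2a1 gave 0.75 (edgeR adjusted p = 0.234), the only one whose groups did not overlap. Ckm gave 0.03 (SE 0.40), Mylpf 0.16 (SE 0.17), Acta1 0.51 (SE 0.57) and Tnnt3 0.51 (SE 0.24). Mylpf alone had 14.3 CPM in KO 3. The part of these markers in the Rpl3l level was not tested. Rpl3 itself, which lies near the peptidyl transferase centre, had 907 to 956 CPM in KO and 914 to 977 CPM in flox.

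**Figure D5:**
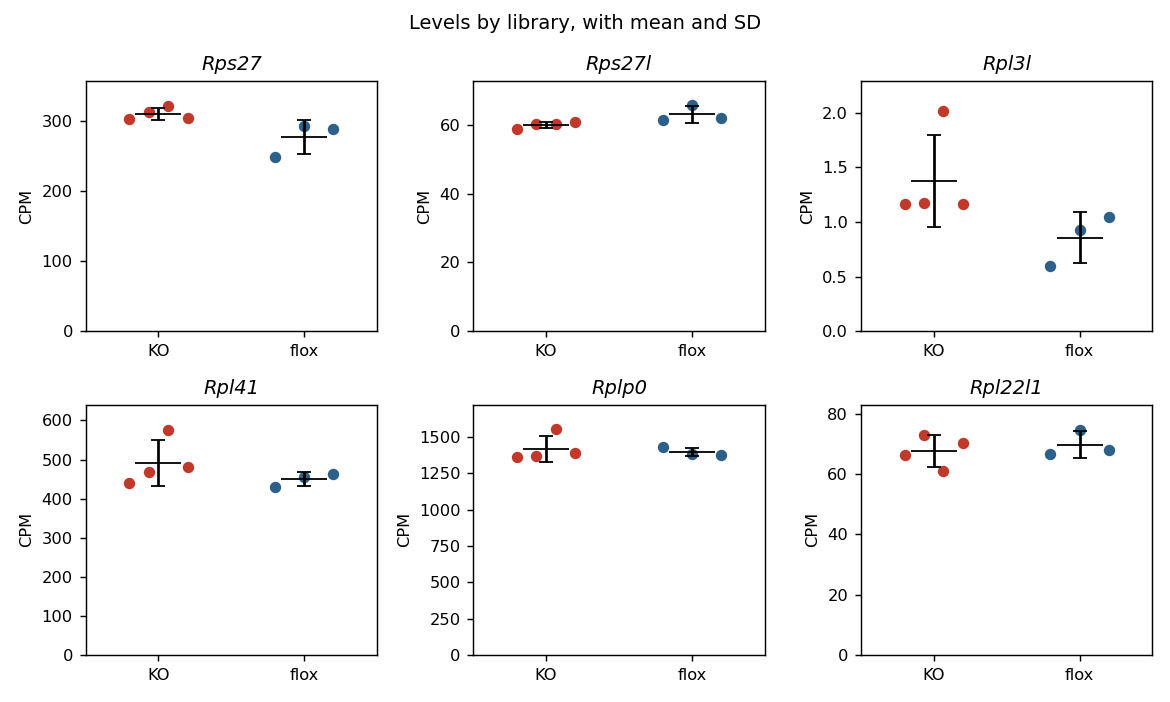
CPM of 6 genes by library, KO in red left of flox in blue, with the mean (bar) and SD (whiskers) of 4 KO and 3 flox libraries on axes from 0. Rps27 and Rpl3l lie higher in every KO library, Rps27l lies lower, and KO 3 is the high library for Rpl3l (2.01 CPM), Rpl41 (575 CPM) and Rplp0 (1554 CPM).

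The remaining paralogues showed no separation of the groups. Rpl22l1, which can stand in for Rpl22, had 66.1, 73.0, 60.9 and 70.4 CPM in KO against 66.5, 74.7 and 67.8 CPM in flox (log2 fold change -0.04, edgeR adjusted p = 0.873). Rpl22, needed for mouse alpha-beta T cells, had 249 to 259 CPM in KO and 245 to 267 CPM in flox (0.00, 95% interval -0.14 to 0.15). Rpl7l1 stood at 64.2 to 77.9 CPM in KO and 66.6 to 85.1 CPM in flox (-0.08, SE 0.10), beside its relative Rpl7 at 0.02. Rpl39l, a form of Rpl39 used in male germ cells, had 2 to 11 counts per library in KO and 6 to 18 in flox, while Rpl39 gave 0.11 (SE 0.08, edgeR adjusted p = 0.634). Rpl10l, which replaces the X-linked Rpl10 in male germ cells, was the member that failed the filter, with 1 count over the 4 KO libraries and 2 over the 3 flox libraries, and Rpl10 gave -0.06 (SE 0.07). Rps4l, a relative of Rps4x that GENCODE M21 classes as a transcribed processed pseudogene and that is therefore no member, varied far more than any of them, with 1.64, 2.88, 5.81 and 3.53 CPM in KO against 0.976, 12.3 and 1.56 CPM in flox. Its range in flox covered that in KO (log2 fold change -0.51, SE 0.95), and it was 1.46 without flox 2, the highest library. Rps4x, on the X chromosome, gave 0.00 (95% interval -0.16 to 0.16).

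Members with other known roles had fold changes close to 0 and overlapping groups. Among the stalk proteins, Rplp0, the stalk base, had 1363, 1371, 1554 and 1390 CPM in KO against 1430, 1386 and 1378 CPM in flox (log2 fold change 0.02, edgeR adjusted p = 0.943). Rplp1 gave 0.04 and Rplp2 gave 0.05. Rpl5 and Rpl11, which with the 5S rRNA bind the p53 regulator MDM2 when assembly fails, gave 0.02 (95% interval -0.14 to 0.18) and 0.04 (-0.12 to 0.21). Rps6, the substrate of the S6 kinases, had 530, 557, 569 and 527 CPM in KO against 532, 578 and 544 CPM in flox (-0.01, 95% interval -0.17 to 0.14). Rps14 gave 0.04, Rps27a, made as a fusion with ubiquitin, gave -0.03, Rpl38, whose loss in mice alters Hox message translation, gave 0.03, and Rpl10a and Rps3 gave 0.02 each.

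Of the 18 genes listed for Diamond-Blackfan anaemia in humans, 17 were higher and Rpl15 (-0.02) was lower, with a median of 0.04 and 0 past the threshold, where 63 of all 82 tested members were higher, with a median of 0.03. Without flox 1, 9 of the 18 were higher and their median was -0.0012. Rps19, the gene most often mutated in that disease, had 367, 385, 415 and 386 CPM in KO against 334, 384 and 371 CPM in flox (log2 fold change 0.10, SE 0.08, 95% interval -0.08 to 0.27, edgeR adjusted p = 0.640). KO 1 lay below 2 flox libraries. Among the members lower in KO, Rpl6 at -0.05, Rps2 at -0.05 and Rpl10 were among those with the lowest p, with edgeR adjusted p from 0.787 to 0.842. Of the ribosomal proteins that the symbol rule misses, Fau, made as a ubiquitin-like fusion, gave 0.09, Rack1 gave 0.02 and Rpl36al -0.07, all short of the threshold.

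Lists of genes that work with the ribosome held 0 genes past the threshold. Of 17 other messages known or reported to carry a TOP motif 7 were higher and 10 lower, with a median of -0.01 and 0 past the threshold; the lowest p were those of Pabpc1, the poly(A) binding protein (0.15, SE 0.11), and the initiation factor gene Eif3f (0.07). Of 37 tested ribosome assembly genes 14 were higher and 23 lower, with a median of -0.03 and 0 past the threshold; Rrp1b, a nucleolar assembly factor, gave -0.17 (SE 0.09) and Pno1, needed for the small subunit, -0.14 (SE 0.08). Of 78 mitochondrial ribosomal protein genes, a list added after the other values were seen, 22 were higher and 56 lower. Their median was -0.04, with 0 past the threshold. Those higher were 28.2% of the list, against 48.1% of all tested genes. No count with a library left out is given for this list. In that list Mrps16 had 17.5, 17.3, 18.5 and 17.2 CPM in KO against 20.4, 20.1 and 20.3 CPM in flox, without overlap (log2 fold change -0.20, SE 0.08, edgeR adjusted p = 0.285), and Mrpl49 gave 0.24 (adjusted p = 0.319).

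Among 17 regulators of TOP messages and of ribosomal protein gene transcription 10 were higher and 7 lower, with a median of 0.02 and 0 past the threshold. Tsc1, a brake on mTOR complex 1, had the lowest p, with 42.4, 45.5, 53.8 and 46.5 CPM in KO against 40.7, 36.3 and 38.5 CPM in flox. All KO libraries lay above all flox libraries (0.29, SE 0.09, edgeR adjusted p = 0.237). Rptor, the scaffold of that complex, gave 0.19 (SE 0.09, adjusted p = 0.377), with overlapping groups. Of 19 p53 target genes 11 were higher and 8 lower, with a median of 0.05 and 0 past the threshold in the edgeR test. Plk2, a kinase gene that p53 induces, had 4.85, 5.14, 5.26 and 4.85 CPM in KO against 2.11, 3.44 and 3.53 CPM in flox (0.73, SE 0.19, edgeR adjusted p = 0.202; DESeq2 adjusted p = 0.0184). The cell cycle inhibitor gene Cdkn1a gave 0.34 (SE 0.16, edgeR adjusted p = 0.378).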

How the data were processed

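The deposited table holds raw counts per Ensembl gene, which the authors left unscaled. Per the submitters' processing notes, the tools were Trimmomatic 0.36 for the reads, STAR 2.5.2b for alignment, with GRCm38 as genome, and featureCounts (Subread 1.5.2) for the count itself. The settings for strand, multi-mapping reads and annotation release were not given in the sources used here. Such settings bear on this family, which has many near-identical processed pseudogenes. The 272 pseudogenes whose symbol is that of a member with -ps added held 0.177% as many counts as the members. For 1 member (Rpl38) their share was 5.39%, the highest. Pseudogenes under other symbols were not counted, so these shares are no upper bound. Where multi-mapping reads were placed cannot be read from them. GENCODE M21 matched 49056 gene IDs and 259 did not match; 0 columns were not mapped to a sample.

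R 4.3.3 with edgeR 4.0.16 filtered counts (filterByExpr, minimum count 10), applied TMM and tested KO against flox over all genes (robust glmQLFit, glmQLFTest, two-sided, Benjamini-Hochberg, threshold 0.05). CPM use TMM-scaled library sizes; log2 CPM use a prior count of 2. Log2 fold changes are KO minus flox, with SEs from the F statistic. The depth leaves counting error small for all but the rarest members. Pairs of libraries of 1 group differed by a chi-square of 19.0 to 90.6 per degree of freedom, beyond counting noise. None was therefore taken for a library deposited again, which does not show that they come from separate animals. The edgeR test was also run on data with known changes. On simulated counts, with the typical spread of genes at each level, it found 52% of genes changed 1.5-fold and 86% of those changed 2-fold. Of its 179 calls there, 10 were false. Folds smaller than 1.5 were not simulated.

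The members and lists were chosen with earlier results of these data known. Named genes are the 6 lowest p in each direction, 3 levels at each end, listed roles and the 2 lowest p of each further list. Alternatives were 2 other scalings, DESeq2 1.42.0, 2 other filters, pseudogene counts added to their parents, the replicate number as a block, and each library left out. Values of some genes that this rule names are not reported here.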

Additional observations from a re-analysis of the deposited data

Results flagged for a closer look

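Of 48 values examined over the 4 KO libraries, 2 had 1 library farther from the rest than Dixon's test at 95% allows, where chance flags about 1 in 20 such groups. Rpl3l was at 2.01 CPM in KO 3, against 1.16 to 1.17 CPM in the other KO libraries. Rplp0 was at 1554 CPM in KO 3, against 1363 to 1390 CPM in the other KO libraries.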

How the results depend on the processing

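Under all 14 alternatives 0 members passed. The count over all genes was 26, and it was 365 with DESeq2, 112 with no filter on low counts, 9 with a mean CPM of at least 5, and 2 to 14 with a library left out; with the replicate block it was 4. Same-numbered libraries had deviations correlated at -0.02, 0.08 and 0.02, and the other pairs at -0.09 to 0.05. Deviations from the mean of so few libraries are tied to each other, so these values cannot settle whether replicate numbers pair the libraries. The block moved no member past the threshold. With a library left out the median of the members ran from -0.0065 (without flox 1) to 0.083 (without flox 2), the log2 ratio of summed levels from -0.0085 to 0.077, and that of the subunit balance from -0.0048 to 0.0080; these changes of sign lie around 0.

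None of the 46 named genes passed in the edgeR test, and Plk2 passed with DESeq2. In 51 of 638 recomputed log2 fold changes the sign turned, in each case for a gene whose interval holds 0. With DESeq2 size factors Rps12 was 0.0053 and Rps4x 0.011, and the DESeq2 test gave the same rounded values, 0.0053 and 0.011. With library size alone Rpl3 was 0.0021, Rps12 0.011, Rps4x 0.018 and Rps6 0.0063. With no filter Rps4x was 0.0037. With a mean CPM of at least 5, Rpl3 was 0.0038, Rps12 0.014, Rps4x 0.020 and Rps6 0.0083. With the replicate block Rpl22 was -0.0050, Rps4l 0.18, Rps4x 0.0041 and Rps6 0.0023. With a library left out the values ran from -0.096 to 0.0050 for Rpl10, -0.030 to 0.078 for Rpl10a, -0.029 to 0.056 for Rpl22, -0.079 to 0.027 for Rpl22l1, -0.037 to 0.028 for Rpl3, -0.045 to 0.11 for Rpl38, -0.52 to 0.41 for Rpl39l, -0.014 to 0.079 for Rpl5, -0.0047 to 0.074 for Rpl7, -0.15 to 0.055 for Rpl7l1, -0.010 to 0.048 for Rplp0, -0.010 to 0.087 for Rplp2, -0.038 to 0.026 for Rps12, -0.079 to 0.041 for Rps27a, -0.018 to 0.071 for Rps3, -1.01 to 1.46 for Rps4l, -0.034 to 0.042 for Rps4x, -0.044 to 0.036 for Rps6, -0.042 to 0.089 for Rps9 and -0.13 to 0.063 for Rpl36al. The cause was not tested. Depth limits Rpl10l and Rpl39l, which had too few counts for any statement on a change.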
